A study of Mus musculus with 4 samples.

Results

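The genes of the proteasome were compared between Met-low and Met-high cells, the populations of the mouse melanoma line B16-F10 that were sorted by the amount of Met, the receptor of hepatocyte growth factor, on the cell surface. Members were the genes whose probe carries an accession that RefSeq gives to a symbol starting with Psma, Psmb, Psmc, Psmd, Psme, Psmf or Psmg and a digit, without the immunoproteasome genes *Psmb8*, *Psmb9* and *Psmb10*, each represented by its brightest probe. Of 47 such genes, 45 passed the filter on dim probes, which asks for signal well above background in both replicates of either population. These are the members, among 11958 genes that passed the same filter and 20832 genes with a named probe. The other two, *Psma8* and *Psmb11*, whose products are known from testis and thymus, were well above background on none of the 4 arrays. Measured values entered this rule only through the choice of the brightest probe and the filter on dim probes. The list was chosen with earlier results of these data known.

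The proteasome is the complex that degrades proteins tagged with ubiquitin. Its 20S core is a barrel of stacked rings of alpha and beta subunits, and the catalytic sites lie on the beta subunits encoded by *Psmb5*, *Psmb6* and *Psmb7*. The 19S particle caps the core, where its base holds the ATPases of the *Psmc* genes that unfold the substrate and its lid holds *Psmd14*, the enzyme that removes ubiquitin. Chaperones of the *Psmg* genes and of *Psmd5*, *Psmd9* and *Psmd10* help to assemble core and base, and the activators encoded by the *Psme* genes bind the ends of the core. When the proteasome is inhibited, the transcription factor Nfe2l1 is known to raise many of the subunit genes together through antioxidant response elements in their promoters.

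Promoters are shown for the member with the largest difference, *Psme3*, and for *Psmb5*, *Psmb6* and *Psmd9*, the members that hold the core of the antioxidant response element and were without overlap, with Met-high cells on top. They were chosen after their values were seen. Each is the RefSeq window of 300 bases in GRCm38.p6, from 250 bases before to 50 after the start of the gene, read in the direction of the gene, which is the minus strand for *Psmb5* and the plus strand for the others. Capitals mark the antioxidant response core TGACNNNGC and the CCAAT box, searched on both strands.
*Psme3*, chr11:101315963-101316262: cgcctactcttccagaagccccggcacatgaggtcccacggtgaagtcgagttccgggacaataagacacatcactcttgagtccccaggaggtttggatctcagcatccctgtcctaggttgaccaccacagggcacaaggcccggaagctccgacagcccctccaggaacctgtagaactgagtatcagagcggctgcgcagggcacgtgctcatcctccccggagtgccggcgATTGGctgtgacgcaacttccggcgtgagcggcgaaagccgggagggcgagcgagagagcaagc
*Psmb5*, chr14:54617946-54618245: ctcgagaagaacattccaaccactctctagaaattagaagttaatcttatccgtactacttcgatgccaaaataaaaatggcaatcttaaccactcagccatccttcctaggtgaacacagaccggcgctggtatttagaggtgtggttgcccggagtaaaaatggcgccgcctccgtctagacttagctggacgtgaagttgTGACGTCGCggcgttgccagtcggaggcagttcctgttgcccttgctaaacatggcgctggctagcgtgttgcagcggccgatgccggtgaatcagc
*Psmb6*, chr11:70525107-70525406: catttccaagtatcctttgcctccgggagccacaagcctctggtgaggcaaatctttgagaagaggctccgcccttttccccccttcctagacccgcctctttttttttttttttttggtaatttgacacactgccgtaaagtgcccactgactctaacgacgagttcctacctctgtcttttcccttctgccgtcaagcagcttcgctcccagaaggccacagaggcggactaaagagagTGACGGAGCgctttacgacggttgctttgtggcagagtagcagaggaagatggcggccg
*Psmd9*, chr5:123227940-123228239: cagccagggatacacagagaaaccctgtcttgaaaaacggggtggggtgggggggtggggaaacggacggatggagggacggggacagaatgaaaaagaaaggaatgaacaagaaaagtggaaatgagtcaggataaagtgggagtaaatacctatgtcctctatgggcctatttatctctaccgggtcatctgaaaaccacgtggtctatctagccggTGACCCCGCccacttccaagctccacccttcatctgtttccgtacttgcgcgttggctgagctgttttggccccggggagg
The antioxidant response core starts 47 bases before the gene start in *Psmb5*, 9 before it in *Psmb6* and 31 before it in *Psmd9*, and in *Psme3* a CCAAT box in reverse orientation starts 14 bases before it. A promoter was given for 38 of the 45 members, and 6 of them held the antioxidant response core (*Psmb5*, *Psmb6*, *Psmc6*, *Psmd9*, *Psmd12* and *Psme4*). The log2 differences of these, Met-high minus Met-low, were 0.15, 0.54, -0.16, 0.45, -0.05 and 0.32 in that order. This was 15.8% of the members, against 14.0% of all 27025 genes with a promoter and 16.7% of the 9634 genes that also passed the filter on dim probes. The CCAAT box was in 14 members, or 36.8%, against 41.1% and 43.2%. A match to these letters describes the sequence and is not evidence of a bound site.

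Both populations came from the parental B16-F10 culture, grown in medium with serum, were separated by flow cytometry and were kept in culture for 3 days, with no treatment in either. For each population 2 independently prepared samples were hybridised to Agilent mouse arrays with a single dye. B16-F10 is a single established line, so the samples do not stand for different animals or tumours, and p-values measure the spread between these preparations. Signal is given on the log2 scale against the 75th percentile of the array, which lay between 858 and 1331, and a difference is the Met-high mean minus the Met-low mean. Met-low samples took positions 1 and 2 of the slide and Met-high samples positions 3 and 4, and the effect of position cannot be told apart from that of population. The signal of *Met* itself overlapped, at -0.26 and -0.89 in the Met-low replicates against 1.03 and -0.43 in the Met-high replicates. Its difference was 0.87 (standard error 0.51, adjusted p = 0.333). It hung on single Met-high replicates, since leaving out replicate 2 gave 1.61 (limma, adjusted p = 0.0196, and 0.0196 to 0.820 across the settings) and leaving out replicate 1 gave 0.14 (adjusted p = 0.820). With the replicate number as a block its adjusted p was 0.04998.

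The labels give skin as the tissue, and of the melanocyte markers all 8 passed the filter, with *Mlana*, *Pmel* and *Dct* among them. Their median difference was 0.01. The log2 of their summed signal, which the brightest genes dominate, was 10.44 to 10.73 in Met-low and 10.54 to 10.73 in Met-high cells. Of the 8, *Kit* was called lower in Met-high cells, with a difference of -2.19 (standard error 0.21, adjusted p = 0.00989). *Sox10* was without overlap in the other direction, at 0.53, and was not called (adjusted p = 0.128). Of 18 markers of fibroblasts, leukocytes, endothelial cells and keratinocytes, 6 passed the filter and 8 were well above background on no array. *Ptprc*, *Cdh5*, *Dcn* and *Lum* were among these 8. Those that passed were *Col1a2*, *Cd3e*, *Itgam*, *Kdr*, *Pecam1* and *Krt14*. The leukocyte markers *Cd3e* and *Itgam* and the endothelial marker *Kdr* were well above background on every array. *Itgam* was without overlap at -0.65, *Kdr* without overlap at 0.36, and *Cd3e* overlapped at 0.37. None of these was called. *Col1a2* was lower in Met-high cells, with a difference of -1.10 (standard error 0.17, adjusted p = 0.0311). The log2 of the summed signal of the fibroblast list was -0.69 to -0.56 in Met-low and -1.74 to -1.68 in Met-high cells. That of the leukocyte list, which *Cd3e* and *Itgam* dominate, was 1.87 to 2.14 against 1.64 to 1.97. That of the endothelial list, which *Kdr* dominates, was 2.45 to 2.66 against 2.75 to 3.08. That of the keratinocyte list was -3.11 to -2.26 against -3.23 to -2.98. The part of such cells in the results was not tested.

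No proteasome gene was called different between Met-low and Met-high cells. Limma with Benjamini-Hochberg adjustment over all genes called 0 of 45 members at an adjusted p under 0.05, while it called 5.77% of all genes tested (1.95% higher and 3.82% lower in Met-high cells). The smallest adjusted p among the members was 0.112, for *Psmd13*. At an unadjusted p under 0.05 there were 7 members higher and 0 lower in Met-high cells, a share of the 45 to be read against 14.3% and 11.9% of all genes. The differences were small, since the 45 members lay between -0.29 for *Psmd14* and 0.83 for *Psme3*, and none reached 2-fold, a size that 2.43% of all genes passed upward and 5.29% downward. For 38 members the 95% interval of the difference, not adjusted for the number of genes, lay wholly within 2-fold, and for 12 of these it lay within 1.5-fold. The other 7, *Psme3*, *Psmc3ip*, *Psmc2*, *Psmd13*, *Psmd2*, *Psma1* and *Psmb7*, had intervals that ran past 2-fold on the Met-high side. With the replicate number as a block, which the labels do not establish as a pairing, 10 members were called higher and 0 lower, beside 16.5% of all genes called higher and 13.2% lower.

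Most members nevertheless had a somewhat higher mean in Met-high cells. The mean was higher there for 37 of 45 members, or 82.2%, against 59.5% of all genes tested, and lower for 8, against 40.5%, and the median difference was 0.23 against 0.10. The populations did not overlap for 27 members, of which 24 were higher in both Met-high replicates, against 35.7% of all genes, and 3 were lower in both, against 22.6%. The remaining 18 overlapped. Without *Psmc3ip* and *Psme3ip1*, which share the symbol and are not parts of the proteasome, 35 of 43 members had a higher mean and the median stayed at 0.23. These counts describe the list and carry no test. In RNA from whole cultures, fewer cells of a type and less RNA per cell cannot be told apart.

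The replicates of one population differed from each other by nearly as much as the populations did. The median signal of the members was 3.97 and 4.17 in the Met-low replicates against 4.32 and 4.47 in the Met-high replicates. Replicate 2 was above replicate 1 for 37 of 45 members in each population, with a median gap of 0.20 in both. Over all genes tested, replicate 2 was higher for 51.8% of genes in the Met-low population and for 54.7% in the other, with median gaps of 0.02 and 0.04. Taken array by array, Met-high replicate 2 lay above Met-low replicate 1 for 40 members, with a median difference of 0.38. Over all genes tested it did so for 6791 of 11951, with a median of 0.10. Met-high replicate 1 lay above Met-low replicate 2 for 27 members, with a median difference of 0.072. Over all genes this pair gave 6793 of 11954 and a median of 0.075, so the members did not stand above all genes there by the median. The arrays of the members were thus ordered by replicate as well as by population, and what the replicate 2 samples share was not tested. Without Met-high replicate 2 the median difference of the members was 0.14, with 34 of 45 higher, beside a median of 0.08 over all genes.

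**Figure D1:**
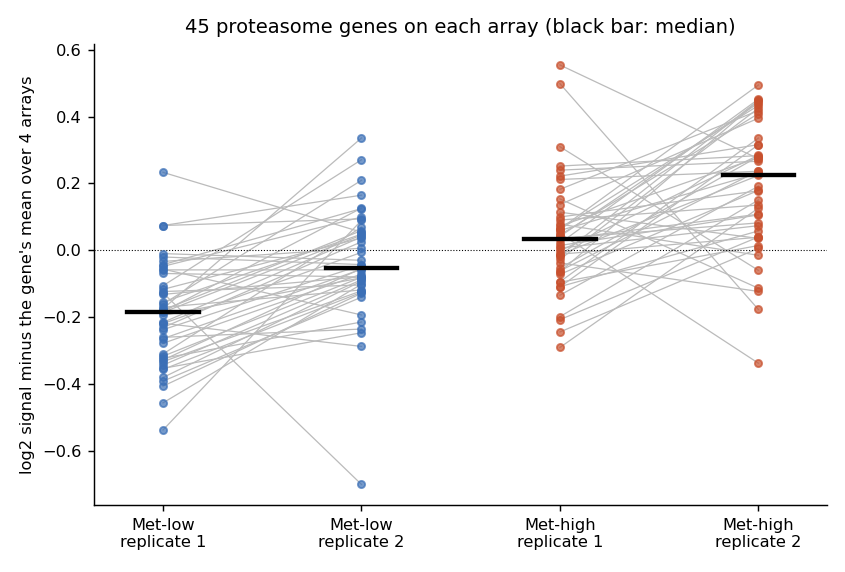
Log2 signal of each of the 45 proteasome genes on the 4 arrays, minus the mean of that gene over the arrays. Points are genes, grey lines join the 2 replicates of a population for each gene, and black bars are medians. The Met-high medians lie above the Met-low medians, and within each population replicate 2 lies above replicate 1 for 37 of 45 genes.

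Of the 7 alpha subunits of the 20S core, which form its outer rings and the gate, 6 were higher on average in Met-high cells and 0 passed the adjusted p, with a median difference of 0.08. The largest value was that of *Psma1*, at 4.09 and 4.34 in the Met-low replicates against 4.62 and 4.88 in the Met-high replicates, a difference of 0.53 (standard error 0.19, adjusted p = 0.158). Next came *Psma6* at 0.23, also without overlap. *Psma2*, *Psma4*, *Psma5* and *Psma7* lay between 0.06 and 0.12, and *Psma3* was at -0.05. For these last 5 genes the whole interval lay within 1.5-fold.

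All 7 beta subunits were higher on average in Met-high cells, 6 of them with no overlap between the populations, and 0 passed the adjusted p. Of all genes, 59.5% were higher on average and 35.7% were higher without overlap. The median difference of the beta subunits was 0.35. Of the catalytic subunits, *Psmb6*, which carries the caspase-like activity, was at 5.96 and 6.24 in the Met-low replicates against 6.62 and 6.65 in the Met-high replicates, a difference of 0.54 (standard error 0.17, adjusted p = 0.139). *Psmb7*, with the trypsin-like activity, was at 3.67 and 3.90 in the Met-low replicates against 4.06 and 4.46 in the Met-high replicates, a difference of 0.48 (standard error 0.21, adjusted p = 0.217). *Psmb5*, with the chymotrypsin-like activity and known as the target of bortezomib, was at 6.93 and 6.92 in the Met-low replicates against 7.11 and 7.03 in the Met-high replicates, a difference of 0.15 (standard error 0.15, adjusted p = 0.571), and the 95% interval ran from -0.24 to 0.54. A second probe of *Psmb5* gave 0.34, and the mean of both probes 0.24. Of the subunits without a catalytic site, *Psmb1*, *Psmb3* and *Psmb4* were separated, at 0.35, 0.40 and 0.21, and *Psmb2* overlapped, at 0.14. The immunoproteasome counterparts, left out of the members, were mostly dim. *Psmb8* was well above background on no array and *Psmb9* on 1 Met-low array, while *Psmb10* was detected on all 4 with a difference of 0.04.

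In the base of the 19S particle, 5 of the 6 ATPase genes were higher on average in Met-high cells, 4 of them without overlap (35.7% of all genes), and 0 passed the adjusted p. *Psmc4* was at 4.48 and 4.50 in the Met-low replicates against 4.80 and 5.17 in the Met-high replicates, a difference of 0.50 (standard error 0.19, adjusted p = 0.180). *Psmc2* and *Psmc5* followed at 0.45 and 0.43, *Psmc1* and *Psmc3* were at 0.12 and 0.03, and *Psmc6* was at -0.16 with overlap. On the brightest probe the Met-low replicates of *Psmc2* lay far apart, at 4.80 and 5.43, while those of Met-high cells were at 5.55 and 5.58. Its second probe had the Met-low replicates closer, at 4.96 and 5.08 against 5.24 and 5.42 in Met-high cells, a difference of 0.31. The scaffold genes *Psmd1* and *Psmd2* and the ubiquitin receptor gene *Psmd4* were all separated in the same direction, at 0.28, 0.47 and 0.29, and 0 of the 3 passed the adjusted p.

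The 8 lid genes had 5 higher and 3 lower means in Met-high cells, and 0 passed the adjusted p. *Psmd13*, a structural lid subunit, was at 3.70 and 3.80 in the Met-low replicates against 4.23 and 4.47 in the Met-high replicates, a difference of 0.60 (standard error 0.17, adjusted p = 0.112). *Psmd3*, also a structural subunit, was at 5.73 and 5.66 in the Met-low replicates against 6.18 and 6.21 in the Met-high replicates, a difference of 0.51 (standard error 0.15, adjusted p = 0.123), with replicates that nearly coincided. The lowest value of all members was that of the deubiquitinase gene *Psmd14*. It was at 2.09 and 1.92 in the Met-low replicates against 1.91 and 1.52 in the Met-high replicates, a difference of -0.29 (standard error 0.20, adjusted p = 0.409), so that Met-low replicate 2 and Met-high replicate 1 were level. Without Met-high replicate 2 it was -0.093, above several members, such as *Psmg4* at -0.37, *Psme2* at -0.36 and *Psmd8* at -0.29. Without Met-low replicate 1 it was -0.20, above *Psmc6* at -0.42, *Psmg4* at -0.35 and *Psme2* at -0.28, among others. Its rank thus rested on single arrays. *Psmd8* was at 4.78 and 4.80 in the Met-low replicates against 4.50 and 4.74 in the Met-high replicates, a difference of -0.17 (standard error 0.17, adjusted p = 0.565). The other lid genes overlapped, with *Psmd7* at 0.38, *Psmd11* at 0.25, *Psmd6* at 0.24 and *Psmd12* at -0.05. Differences between lid genes were not tested.

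**Figure D2:**
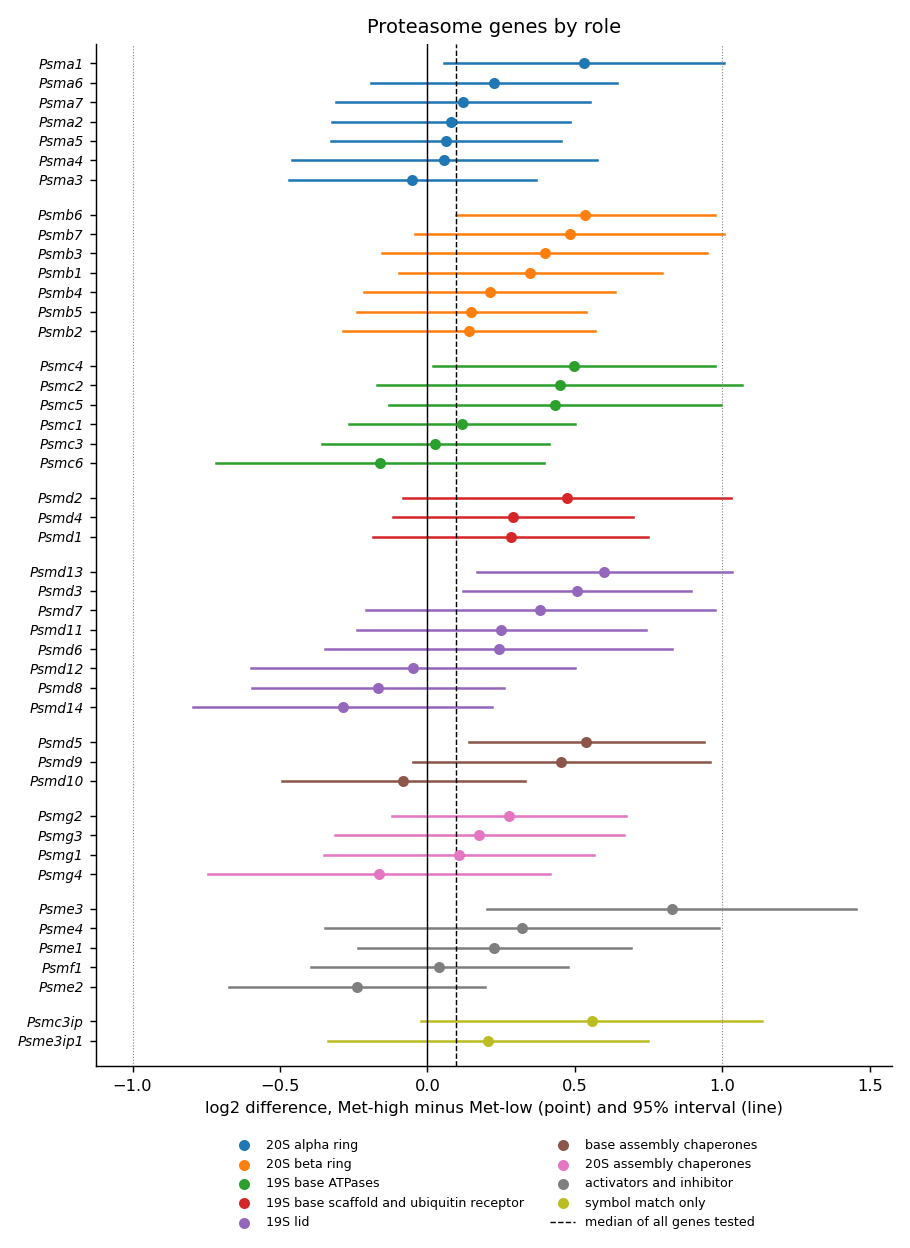
Difference of the log2 signal, Met-high minus Met-low, for the 45 genes grouped by role. Points are differences of means over 2 arrays each, lines are 95% intervals from limma not adjusted for the number of genes, the solid line is 0, the dashed line is the median of all genes tested (0.10) and dotted lines mark 2-fold. Most points lie to the right of 0 and 38 intervals stay within the dotted lines.

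Of the chaperones that assemble the base, *Psmd5* was at 1.68 and 1.79 in the Met-low replicates against 2.22 and 2.32 in the Met-high replicates, a difference of 0.54 (standard error 0.16, adjusted p = 0.117). *Psmd9* was at 0.93 and 1.14 in the Met-low replicates against 1.31 and 1.67 in the Met-high replicates, a difference of 0.45 (standard error 0.20, adjusted p = 0.223), and *Psmd10*, which encodes gankyrin, overlapped at -0.08. The 4 chaperones of the core had a median of 0.14, with *Psmg2* at 0.28 as the one without overlap, *Psmg3* at 0.18, *Psmg1* at 0.11 and *Psmg4* at -0.16. None of these 7 genes passed the adjusted p.

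With all 4 arrays, the activators held both the largest difference of the members and the second lowest. *Psme3*, which encodes the nuclear PA28 gamma, was at 2.69 and 2.12 in the Met-low replicates against 3.37 and 3.09 in the Met-high replicates, a 1.78-fold higher mean (95% interval 1.15 to 2.74, log2 difference 0.83, standard error 0.25, adjusted p = 0.120). Without Met-low replicate 2 its difference was 0.54, below several other members, such as *Psmc2* at 0.76, *Psmc3ip* at 0.74 and *Psmb6* at 0.67. Without Met-high replicate 1 it was 0.688, below *Psmc3ip* at 0.77, *Psmd13* at 0.72 and, narrowly, *Psmd2* at 0.689. Its replicates ran against those of most members, since replicate 1 was the higher one in both populations. *Psme1* and *Psme2* encode PA28 alpha and beta, which join in 1 ring and are known to be induced by interferon. *Psme1* was at 2.43 and 2.45 in the Met-low replicates against 2.50 and 2.83 in the Met-high replicates, a difference of 0.23 (standard error 0.18, adjusted p = 0.469). Without Met-high replicate 2 its difference was 0.060. *Psme2* was at 3.54 and 3.63 in the Met-low replicates against 3.23 and 3.48 in the Met-high replicates, a difference of -0.24 (standard error 0.17, adjusted p = 0.421), and its second probe gave -0.38. Without Met-high replicate 1 it was -0.11. The populations were thus separated in opposite directions for these partners, as they were for 35.7% of all genes upward and 22.6% downward. Neither gene passed the adjusted p, and the difference between them was not tested. *Psme4*, which encodes PA200, was at -1.06 and -0.86 in the Met-low replicates against -0.30 and -0.98 in the Met-high replicates, a difference of 0.32 (standard error 0.26, adjusted p = 0.479). Its value rested on Met-high replicate 1, without which it was -0.017. *Psmf1*, the gene of the inhibitor PI31, was at 1.13 and 1.11 in the Met-low replicates against 1.29 and 1.02 in the Met-high replicates, a difference of 0.04 (standard error 0.17, adjusted p = 0.903).

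Of 10 interferon-induced genes set beside the activators, 7 passed the filter. *Tap2*, which encodes part of the peptide transporter of antigen presentation, was called lower in Met-high cells, as 3.82% of all genes were. It was at -2.23 and -2.25 in the Met-low replicates against -3.29 and -3.60 in the Met-high replicates, a difference of -1.20 (standard error 0.18, adjusted p = 0.0275). *Tap1*, the gene of its partner, was well above background in both Met-low replicates and not well above background in either Met-high replicate. It passed the filter through Met-low cells alone, which leaves only a bound on its difference, and its call (limma, adjusted p = 0.0212) is not counted. *Irf1*, *H2-K1* and *H2-D1* did not pass the adjusted p and were at 0.60, 0.58 and 0.56, and *B2m* was at -0.29. The log2 of the summed signal of the list, which bright genes such as *B2m* dominate, was 5.02 to 5.03 in Met-low and 4.82 to 5.09 in Met-high cells.

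*Psmc3ip* and *Psme3ip1* match the symbols and are not proteasome parts. *Psmc3ip* encodes Hop2, a recombination factor of meiosis, and was at -0.01 and 0.34 in the Met-low replicates against 0.51 and 0.94 in the Met-high replicates, a difference of 0.56 (standard error 0.23, adjusted p = 0.202). *Psme3ip1*, whose product binds PA28 gamma, was at 0.21 with overlap.

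A second probe was present for 11 members, and it gave the same sign as the brightest probe in 10. The exception was *Psma4*, at 0.06 and -0.03, and the largest gap between probes of a gene was 0.27, for *Psme4* at 0.32 and 0.05. *Psmb5* and *Psmd9* were separated on the brightest probe and overlapped on the second, at 0.34 and 0.39. *Psmd10* and *Psmd12* overlapped on the brightest probe and were separated on the second, at -0.11 and -0.19. The other 34 members rest on 1 probe.

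The size of the difference over all genes moved with the signal. Of the 45 members, 36 fell in the 3 brightest deciles of the genes tested, and 23 in the brightest decile alone. The median difference of all genes was between -0.03 and 0.03 in the 4 dimmest deciles and between 0.16 and 0.22 in the 3 brightest. In these 3 deciles together, 71.7% of 3588 genes were higher on average in Met-high cells and 45.8% were higher in both Met-high replicates without overlap, with a median of 0.18. For the 36 members among them these values were 86.1%, 61.1% and 0.25. The part of the signal level in the shift of the members was not tested.

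**Figure D3:**
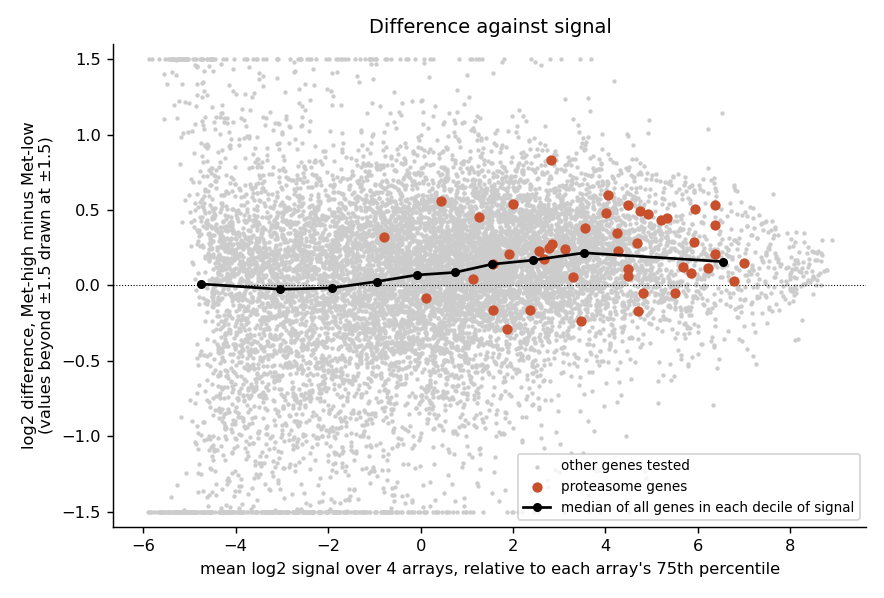
Difference of the log2 signal, Met-high minus Met-low, against the mean log2 signal over the 4 arrays, for 45 proteasome genes (red) and all other genes tested (grey, drawn at the edge beyond 1.5). Black points join the medians of all genes in each decile of signal, drawn at the middle of its range. The medians rise from about 0 in the dimmest deciles to between 0.16 and 0.22 in the 3 brightest, where 36 of the proteasome genes lie.

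The scaling of the arrays also set the size of the shift. With the 75th percentile taken over detected probes alone, the median of all genes moved from 0.10 to -0.05 and that of the members to 0.08, with 28 of 45 higher beside 45.3% of all genes. This scaling lowers every difference by the same amount, so that the members stayed 0.13 above all genes. With quantile normalization, which gives all arrays 1 distribution, the members were at 0.09 with 31 of 45 higher, and all genes at 0.07 with 56.6% higher, which left a gap of 0.02. No member was called under either scaling.

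**Figure D4:**
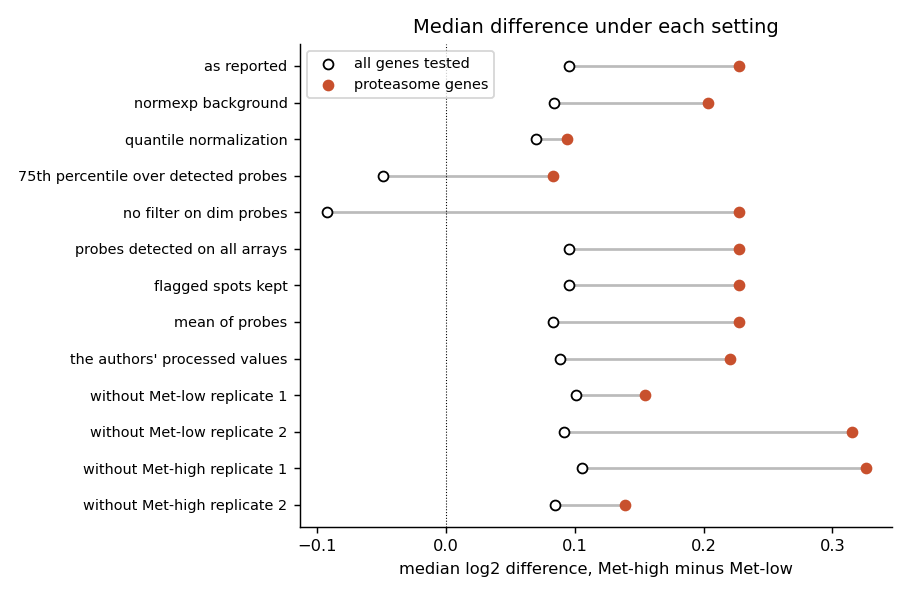
Median difference of the log2 signal, Met-high minus Met-low, of the 45 proteasome genes (red) and of all genes tested (open circles) under each processing setting, joined by a grey line. The median of the proteasome genes lies above 0 and above that of all genes in each setting shown, by 0.02 with quantile normalization and by 0.13 as reported.

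The partners of the proteasome were a list of 31 genes. Among them were genes for ubiquitin, its activating enzymes, shuttle receptors, the unfolding factor Vcp and regulators of proteasome genes. The list also held proteasome parts whose symbols the rule for members does not match, such as *Adrm1*. Of the list, 30 genes had a probe and 29 passed the filter. Of these, 0 were called at an adjusted p under 0.05, beside 5.77% of all genes. At an unadjusted p under 0.05 there was 1 gene in each direction, beside 14.3% of all genes higher and 11.9% lower. The mean was higher in Met-high cells for 20 and lower for 9, against 59.5% and 40.5% of all genes. The median difference was 0.10, as for all genes. Without overlap, 8 partners were higher and 4 lower in Met-high cells, against 35.7% and 22.6% of all genes. *Adrm1*, a ubiquitin receptor of the 19S base, was at 3.79 and 4.004 in the Met-low replicates against 4.17 and 4.66 in the Met-high replicates. Its difference was 0.52 (standard error 0.22, adjusted p = 0.220). *Nploc4*, an adaptor of Vcp, was at 3.16 and 2.77 in the Met-low replicates against 3.59 and 3.42 in the Met-high replicates, a difference of 0.54 (standard error 0.20, adjusted p = 0.172). Both were separated with the Met-high replicates on top, while the next gene was separated the other way. *Nfe2l2*, the regulator of antioxidant genes related to Nfe2l1, was at 2.83 and 2.68 in the Met-low replicates against 2.31 and 2.32 in the Met-high replicates, a difference of -0.44 (standard error 0.16, adjusted p = 0.164). *Nfe2l1* itself overlapped, with replicates that lay further apart than the populations, at -0.63 and -1.59 in the Met-low replicates against -0.64 and -1.84 in the Met-high replicates, a difference of -0.13 (standard error 0.49, adjusted p = 0.887). *Ecpas*, which tethers core and 19S particle, was at -1.32 and -2.20 in the Met-low replicates against -1.49 and -3.32 in the Met-high replicates, a difference of -0.65 (standard error 0.64, adjusted p = 0.559). Without Met-high replicate 1 its difference was -1.56 (limma, adjusted p = 0.0375, and 0.0375 to 0.896 across the settings), and without Met-high replicate 2 it was 0.27.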

How the data were processed

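The series holds 4 arrays of 1 dye, with 2 samples per population and 200 ng of RNA each. The authors deposited the scanner output, with a background-corrected intensity per spot and flags for outliers and for dim spots. Its headers name Feature Extraction 11.0.1.1, while the submitters' processing notes name 10.7.3.1. The log2 values in the deposited table matched the scanner intensity after scaling to the 75th percentile and centring per probe (93.0% to 99.5% of probes within 0.01) without the Lowess step that the methods list.

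Each intensity was put on the log2 scale against the 75th percentile of 43020 non-control spots. Outlier spots (207 to 232 per array) were dropped, 0 spots were saturated, and spots of a probe were averaged. RefSeq (GRCm38.p6) named 27427 of 39429 probes. A gene was represented by its brightest probe and passed if over 0.5 of its spots were well above background in both replicates of a population. Limma 3.58.1 (lmFit, eBayes) under R 4.3.3 compared the populations over 11958 genes, two-sided, with Benjamini-Hochberg adjustment. The fit was tested on simulated data. A permutation test of 2 against 2 cannot go below p = 0.333 and was not used. The number of arrays limits the precision. Members and lists were chosen with earlier results of these data known. Replicate values are given for the 8 members with the largest difference without overlap in each direction (3 existed for lower), the catalytic subunits, activators, inhibitor and *Psmd14*, and for the 4 partners with the largest difference. *Psmc2*, *Psmd9* and *Nfe2l1* were added after their values were seen. Alternatives changed the background, scaling, filter, outlier spots, probes, source of values, variance model, replicate block and arrays used.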

Additional observations from a re-analysis of the deposited data

How the results depend on the processing

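Without the replicate block, 0 members were called in either direction under every alternative run, and their smallest adjusted p lay between 0.0574 and 0.359. The block called 10 members, 2 partners and 1976 of all genes higher, and 0 members, 1 partner and 1580 of all genes lower. The labels tie no number to a shared culture or day and there are only 2 pairs, so the pairing is not established, although deviations of same-numbered arrays correlated with r = 0.54 across 11958 genes, which are not independent replicates. Of all genes, 233 were called higher and 457 lower as reported. The count higher was 147 with the percentile of detected probes and 392 with a mean-variance trend, and without a filter the counts were 0 higher and 7 lower. With single arrays left out, 155 to 264 genes were called higher, 437 to 604 lower, and 0 to 1 partners lower (*Ecpas*, without Met-high replicate 1). The median of the members ranged from 0.08 to 0.33, and was 0.14 without Met-high replicate 2. Some genes changed sign, and the ones given here are not all of them. As reported, 37 members were higher on average in Met-high cells. This was 31 with quantile normalization and 28 when detected probes set the percentile. *Psmf1* was at -0.013 with quantile normalization. When detected probes set the percentile, which lowers every difference by the same amount, *Psmf1* was at -0.10 and *Psmb2* at -0.0043, a change that this construction fixes. With single arrays left out, *Psme4* ranged from -0.017 to 0.66, *Psmf1* from -0.094 to 0.17, *Psma3* from -0.13 to 0.032, *Psmc6* from -0.42 to 0.095, *Psmd10* from -0.17 to 0.0023, *Psmg4* from -0.37 to 0.044, *Psme3ip1* from -0.0067 to 0.42 and *Ecpas* from -1.56 to 0.27. The cause of the changes with single arrays was not tested. With 1 array left in a population, it was assumed to vary like the others.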
